A study of Homo sapiens with 4 samples.

Results

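The genes described here are 10 that maintain or mark the pluripotent state, the condition in which a stem cell can still form every tissue of the body: POU5F1, NANOG, DPPA2, DPPA4, ZFP42, PRDM14, L1TD1, USP44, UTF1 and SALL4. They are taken by gene symbol, as a set put together with earlier results of these data known, and all 10 were found among the 17630 genes analysed. Messenger RNA was measured in H1, an established line of human embryonic stem cells, in 4 libraries. The hESC library came from undifferentiated H1 cells, for which no sort is stated. MES is the APLNR+ population collected by flow sorting on day 2, after 2 days with activin A at 40 ng/ml and BMP4 at 50 ng/ml. HEP is the CD31+CD34+ population sorted on day 4, after 2 further days with VEGF at 40 ng/ml and bFGF at 50 ng/ml. HPC is the CD31+CD43+ population sorted on day 7, after 3 more days with those 2 factors and SB-431542, which blocks the receptors of activin and NODAL. Custom mTeSR1 was the medium in each step, and all groups derive from this 1 line.

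Pluripotency in human cells rests on a small circuit of transcription factors in which POU5F1 (OCT4), SOX2 and NANOG bind their own and one another's control regions and keep the cells from differentiating. Other genes of the set surround that circuit: PRDM14 and SALL4 bind DNA and recruit repressor complexes, ZFP42 (REX1), DPPA2, DPPA4 and UTF1 are nuclear proteins bound to DNA or chromatin, USP44 removes ubiquitin from proteins, and L1TD1 is an RNA-binding protein derived from a LINE-1 retrotransposon. When embryonic stem cells are driven towards mesoderm, genes of this kind generally go down. The comparisons made here ask which of them do so and in which order.

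The values are a normalised expression signal as the authors deposited it. There was 1 library per group, so the spread between replicates is unknown, no test could be run, and every difference lacks a replicate check. Sequencing depth is unknown. In these bulk populations, fewer expressing cells and less RNA per cell cannot be told apart, and the sorted populations are successive samples of a culture, not the same cells followed over time. The library sums ranged from 306720 to 426980. A gene is called lower or higher when its value + 1 differs by at least 2-fold (a log2 difference of 1 or more in size) and it stands at 5 or more in the higher library. The sort antigens fitted the labels in part: APLNR stood at 344 in MES and CD34 at 43.6 in HEP, SPN (CD43) reached 24.4 in HPC, but PECAM1 (CD31) was at 1.83 in HEP and 7.49 in HPC.

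The control regions of these genes differ in the letters they hold. RefSeq promoter windows (build GRCh38.p14, 250 bases before to 50 after the gene start) were matched for 6 of the 10 genes, namely L1TD1, DPPA2, DPPA4, ZFP42, UTF1 and NANOG; POU5F1, PRDM14, USP44 and SALL4 were not matched. They were searched on both strands for the POU octamer ATGCAAAT, the form CATTGT of the SOX core, the composite of both (CATTGT, any base, then the octamer) and the CCAAT box. Only these exact letters were counted. Variants such as CTTTGT for the SOX core, which the L1TD1 window holds, were not searched. A window without a match may therefore still hold a form of the motif. The octamer was in 0 of the 6 windows and in 1.46% of the 13269 windows of measured genes, and the composite in 0 of 6 and in 1 of 13269. With the last letter left off, a choice made after the data were seen, the composite was in 1 of 6, NANOG, and in 2 of 13269. CATTGT, which lies inside that match, was in 1 of 6 against 7.2% of all windows, and CCAAT in 3 of 6 (L1TD1, DPPA4 and ZFP42) against 36.0%. A match is a description of the letters and not a site shown to be bound. The 3 windows shown are that of NANOG for the composite match and those of DPPA4 and L1TD1 as the 2 with CCAAT in the 250 bases before the start, and with unlike time courses.
NANOG (chr12:7789152-7789451, plus strand, capitals mark bases 131 to 144, the shortened composite read on the opposite strand): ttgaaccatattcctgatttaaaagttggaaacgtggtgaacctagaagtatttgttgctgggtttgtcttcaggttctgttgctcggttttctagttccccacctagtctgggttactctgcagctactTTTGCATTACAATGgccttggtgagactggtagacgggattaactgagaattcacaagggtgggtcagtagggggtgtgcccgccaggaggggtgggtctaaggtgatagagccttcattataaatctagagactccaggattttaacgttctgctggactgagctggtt
DPPA4 (chr3:109337497-109337796, minus strand, capitals mark CCAAT at bases 15 to 19): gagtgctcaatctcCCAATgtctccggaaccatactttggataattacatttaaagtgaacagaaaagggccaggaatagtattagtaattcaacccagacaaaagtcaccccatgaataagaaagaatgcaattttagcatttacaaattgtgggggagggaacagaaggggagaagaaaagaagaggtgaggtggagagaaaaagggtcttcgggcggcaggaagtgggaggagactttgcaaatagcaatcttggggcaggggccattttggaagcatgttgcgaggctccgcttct
L1TD1 (chr1:62194599-62194898, plus strand, capitals mark CCAAT at bases 103 to 107, read on the opposite strand): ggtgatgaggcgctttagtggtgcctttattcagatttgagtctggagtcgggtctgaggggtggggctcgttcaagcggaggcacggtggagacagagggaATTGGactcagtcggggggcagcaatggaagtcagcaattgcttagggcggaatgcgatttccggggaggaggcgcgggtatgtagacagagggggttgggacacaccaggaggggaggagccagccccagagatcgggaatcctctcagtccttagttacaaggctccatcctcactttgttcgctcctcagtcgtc
The observed over expected ratio of CpG in the 6 windows ranged from 0.32 in NANOG to 1.02 in UTF1, and 5 of the 6 lay under the median of all windows, 0.79. DPPA2 (0.36) and DPPA4 (0.36), which are next to each other on chromosome 3, had almost the same ratio.

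By day 2 most of the set was already lower, and the loss was uneven. In MES 7 of the 10 genes were called lower than in hESC and 0 higher, against 3.7% of all genes called lower, 3.79% called higher, and 10.9% called lower of the 2637 genes at 20 or more in hESC. Only 8 of the 10 could be called, because DPPA2 and UTF1 stood under 5 in every library. Among these 8 the share of the hESC value left in MES ran from 2.04% (USP44) to 95.6% (SALL4). In HEP 7 of 10 were called lower than in hESC, against 17.3% of all genes and 47.5% of those at 20 or more in hESC, and in HPC 8 of 10, against 15.8% and 42.7%. None was higher in either, against 5.56% of all genes in HEP and 4.67% in HPC. The median log2 difference from hESC over the 10 genes was -1.38 for MES, -3.69 for HEP and -4.53 for HPC; over the 12075 genes at 1 or more in any library it was -0.12, -0.47 and -0.44.

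**Figure D1:**
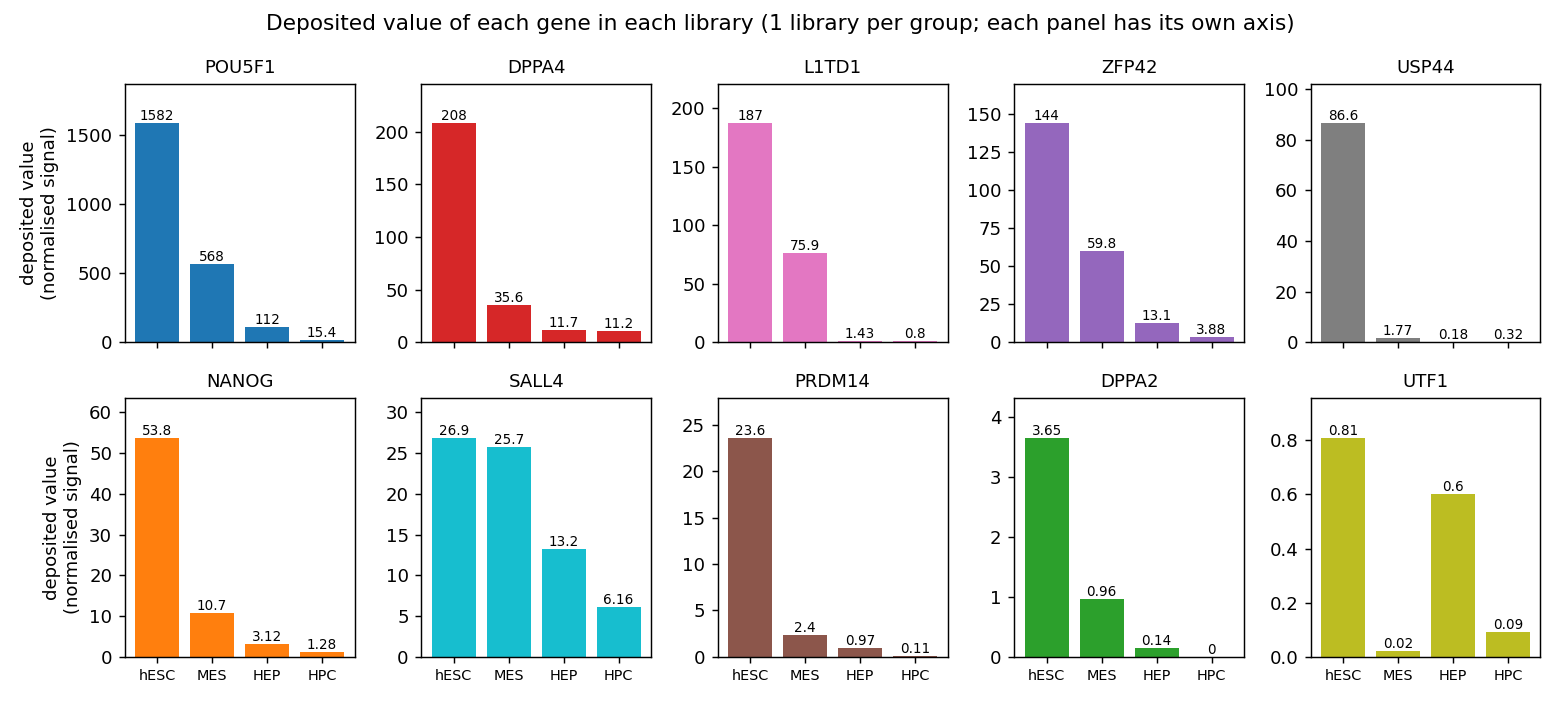
Bars give the deposited value (normalised signal, 1 library per group, no error) of each of the 10 genes in hESC, MES, HEP and HPC, each panel on its own axis from 0. POU5F1 goes from 1582 to 15.4, SALL4 from 26.9 to 6.16, and UTF1 stays under 1 throughout.

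A 50% loss was reached early by most genes that could be called, a 90% loss later. In MES 7 of the 8 stood at 50% of hESC or less, as did 11.7% of the 2637 genes at 20 or more in hESC; 1 of the 8, USP44, stood at 10% or less, as did 0.683% of those genes. In HEP all 8 stood at 50% or less, but so did 48.6% of the 2637 genes, so that mark says little about the set at day 4. At 10% or less stood 7 of the 8 in HEP and 7 of 8 in HPC, against 8.34% and 6.22% of the 2637 genes. SALL4 was the exception at the 10% mark in both. Over the 5 other scalings 3 genes crossed 10% in HEP, so the count of 7 there held only as deposited. ZFP42 was above 10% in all 5, from 12.5% to 29.5%. POU5F1 was above it with median-of-ratios (11.1%) and upper quartile scaling (10.6%). DPPA4 was above it only with the trend of each library with transcript GC content removed, at 18.0% in HEP and 13.3% in HPC. SALL4, at 49.1% in HEP as deposited, ran from 52.2% to 76.7%.

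POU5F1, the POU-family factor at the centre of the circuit, had a value of 1582 in hESC, then 568 in MES, 112 in HEP and lastly 15.4 in HPC. Each population was lower than the one sorted before it. POU5F1 kept 35.9% of its hESC value at day 2 and 7.08% at day 4, and 0.974% at day 7. Its log2 differences over the 3 successive steps were -1.48, -2.33 and -2.78, and each step was called lower. POU5F1 was 1 of only 2 genes of the set called lower from HEP to HPC, where 3.57% of all genes were, and its difference at that step was exceeded by 10 of the 2637 genes. By rank among all genes it was the 46th highest in hESC, the 131st in MES, then the 397th in HEP and the 2475th in HPC. Its retrogene copy POU5F1B was at 0.21 or less in every library, though reads of near-identical copies could have been split between them.

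NANOG, the homeodomain factor of the circuit, stood at 53.8, 10.7, 3.12 and 1.28 in the same order. With 19.9% left in MES and 5.79% in HEP, it was lower relative to hESC than POU5F1 at both times as deposited, but not at day 7, when it kept 2.38%. Its steps were -2.23, -1.51 and -0.85 on the log2 scale, the last not called; the second was at -0.95, not called, with a pseudocount of 5. SOX2, the third factor of the circuit and not of the set, went from 56.7 to 0.41, 0.08 and 0.05. It kept 0.723% of hESC in MES, beside the 35.9% of POU5F1 in the same library. The 3 factors thus stood in the same order of share left, SOX2 below NANOG below POU5F1, in MES and, as deposited, in HEP; in HPC the order was SOX2, POU5F1, NANOG. In HEP the order of the last 2 depended on the scale, since with the GC trend removed NANOG kept 9.08% and POU5F1 8.07%.

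**Figure D2:**
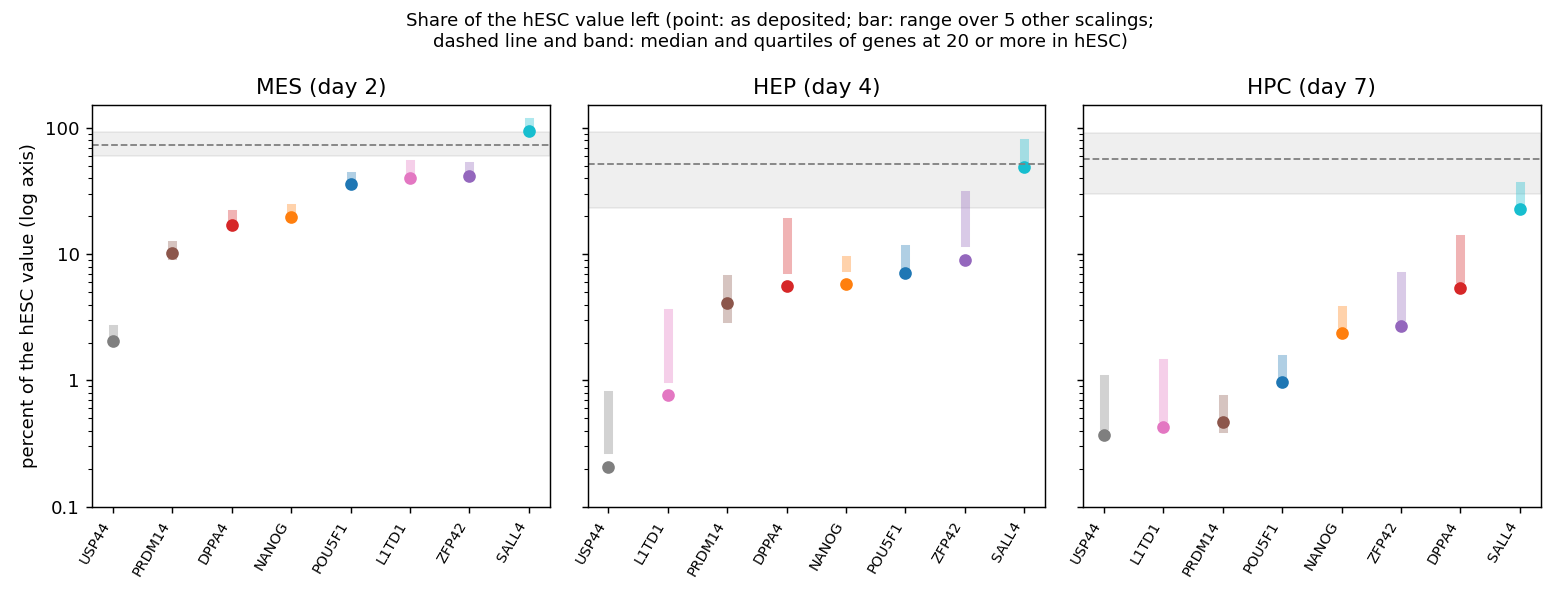
Points give the value in MES, HEP and HPC as a percent of hESC (log axis) for the 8 genes at 5 or more in hESC, coloured bars the range over 5 other scalings, and the dashed line and band the median and quartiles of the 2637 genes at 20 or more in hESC. As deposited, USP44 is lowest in all 3 panels and SALL4 highest, at 95.6%, 49.1% and 22.9%, while L1TD1 moves from 40.6% in MES to 0.765% in HEP.

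PRDM14, a zinc finger protein with a PR domain that represses differentiation genes, had a value of 23.6 in hESC, then 2.40 in MES, 0.97 in HEP and lastly 0.11 in HPC. It kept 10.2% at day 2, the second lowest share of the 8 genes. Of its log2 difference from hESC to HPC (-4.47), 63.9% lay in the first step. This share depended on the pseudocount, being smaller with 0.1 and larger with 5. The first step was the largest of the 3 with either. The values after day 2 are low, and neither later step was called.

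SALL4, a zinc finger factor that binds the NuRD repressor complex and is also used in fetal and blood progenitor cells, was the slow member. It stood at 26.9, 25.7, 13.2 and 6.16. It had 95.6% of its hESC value left in MES, more than the median of 73.2% for the 2637 genes at 20 or more in hESC, and 2020 of these genes had a lower share. Its direction from hESC to MES depended on the scale: over the 5 other scalings the share ran from 99.1% to 112%, and it was above hESC in 4 of them. The differences of its later steps, -0.91 and -0.99, stayed just under the 2-fold mark, and from hESC it was called lower in HPC alone (-1.96). The difference from hESC to HEP, -0.97, passed with a pseudocount of 0.1 (-1.02). The step from HEP to HPC passed with that pseudocount (-1.09) and with 3 of the 5 other scalings.

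ZFP42, a zinc finger protein of the YY1 family and a classical marker of undifferentiated cells, declined more evenly. It stood at 144, 59.8, 13.1 and 3.88, and its log2 steps were -1.26, -2.11 and -1.53. All 3 steps were called lower as deposited. With the trend of each library with transcript GC content removed, the first step was at -0.97 and the second at -0.75, and neither was called. YY1 itself went from 25.4 to 20.2, 9.17 and 10.4.

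DPPA4 and DPPA2 are paired nuclear proteins with a SAP DNA-binding domain, encoded by neighbouring genes. DPPA4 went from 208 in hESC to 35.6 in MES, then 11.7 in HEP and lastly 11.2 in HPC. The difference came early and then stopped: 61.3% of its log2 difference from hESC to HPC lay in the first step and 1.44% in the last, and HPC held 95.6% of the HEP value. Its step from MES to HEP was -1.53, but -0.99 with median-of-ratios scaling and -0.21 with the GC trend removed, not called in either, and with that trend removed it kept 18.0% of hESC in HEP in place of 5.61%. DPPA2 stood at 3.65, 0.96 and 0.14 and was listed at 0 in HPC. It never reached 5, so it could not be called, and its 26.3% left in MES rests on a low value. Both neighbours were highest in hESC and went down in the same order of libraries.

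UTF1, a chromatin-bound transcription factor of embryonic stem cells, was near the bottom of the scale everywhere. Its values were 0.81 for hESC, 0.02 for MES, 0.60 for HEP and 0.09 for HPC, with no steady direction. Its transcripts had a GC content of 76.8%, the highest of the set, where the other 9 lay between 40.5% and 61.1%; the part of this in its low values was not tested.

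USP44, a deubiquitinase that acts on histone H2B and in the mitotic checkpoint, was the fastest. It went from 86.6 in hESC to 1.77 in MES, then to 0.18 in HEP and 0.32 in HPC. Its log2 difference of -4.98 at the first step was exceeded by 1 of the 2637 genes at 20 or more in hESC, SOX2 (-5.36), and this step held 82.3% of its difference from hESC to HPC. The values of 0.18 and 0.32 are both low and their order is not read. With the GC trend removed it kept 2.57% in MES.

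L1TD1 was already lower in MES, but the larger part of its log2 difference lay between MES and HEP. It stood at 187 in hESC and still at 75.9 in MES, then at 1.43 in HEP, with 0.80 in HPC. It kept 40.6% of hESC at day 2, close to ZFP42 (41.5%), and 0.765% at day 4, where ZFP42 kept 9.06%. Its log2 difference of -4.98 from MES to HEP was the lowest among the 2637 genes at 20 or more in hESC, with 0 below it, and held 74.3% of its difference from hESC to HPC. Its transcripts had the lowest GC content of the set, 40.5%. With the GC trend removed it kept 52.0% in MES, where the step (-0.93) was no longer called, and 3.41% in HEP. HEP then held 6.55% of the MES value, in place of 1.88% as deposited. The rank of the step from MES to HEP was not recomputed.

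**Figure D3:**
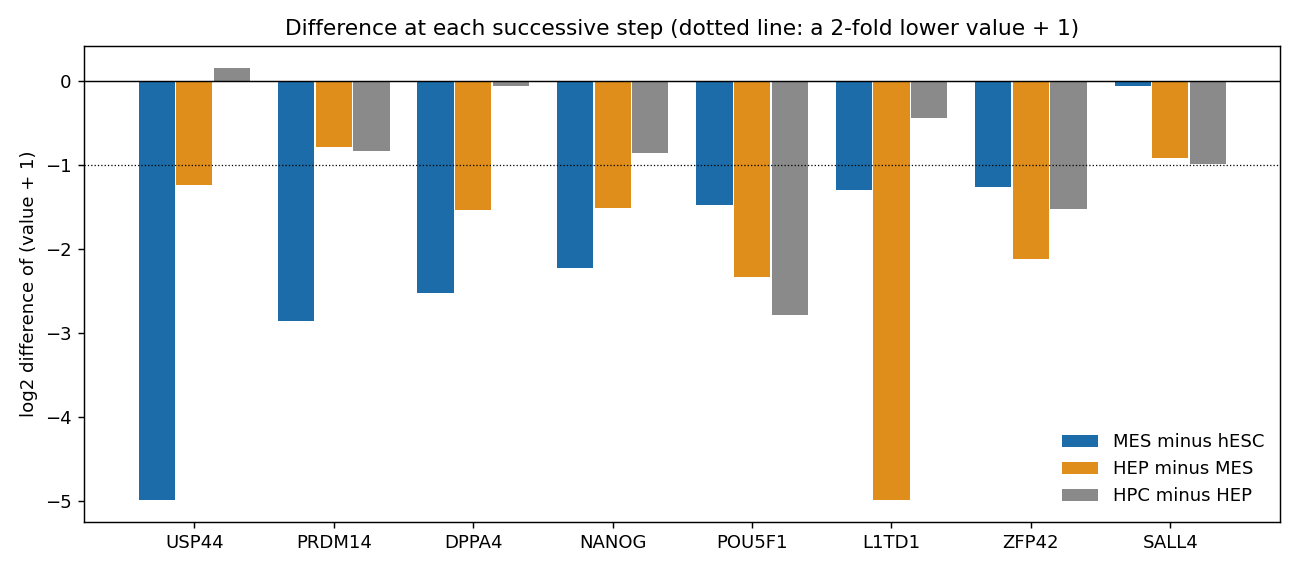
Bars give the log2 difference of (value + 1) at each successive step for the 8 genes at 5 or more in hESC, 1 library per group, with genes ordered by the first step. The steps cover 2, 2 and 3 days, and sizes are per step and not per day. The first step is largest in size for USP44 (-4.98), PRDM14, DPPA4 and NANOG, the second for L1TD1 (-4.98) and ZFP42, and the third for POU5F1 (-2.78) and SALL4.

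The set therefore held several time courses by the size of the steps. The steps lasted 2, 2 and 3 days, and their sizes are given per step and not per day. By the rule of size, 7 genes counted as fast, called lower already in MES (POU5F1, NANOG, DPPA4, ZFP42, PRDM14, L1TD1 and USP44), 1 as slow (SALL4) and 2 as neither (DPPA2 and UTF1). Fast by this rule were 3.7% of all genes and 10.9% of those at 20 or more in hESC. The share of all genes that were slow was not counted. Of genes at 20 or more in hESC, 47.5% were lower in HEP, so the class of SALL4 is not particular to it. The boundary between fast and slow depended on the settings. At 4-fold the fast genes were 4 (NANOG, DPPA4, PRDM14 and USP44), the slow ones 3 (POU5F1, ZFP42 and L1TD1), and SALL4 did not pass. With the GC trend removed 5 were fast (POU5F1 and those 4), and ZFP42, L1TD1 and SALL4 were slow. Fast by the same rule were 0.686% of all genes at 4-fold and 2.17% with the GC trend removed. NANOG, DPPA4, PRDM14 and USP44 were called lower in MES under all 10 alternatives run. On the log2 (value + 1) scale the closest profiles were those of NANOG, DPPA4 and PRDM14. Each pair had a root mean square difference of 0.37 between their log2 differences from hESC over the 3 sorted libraries. That scale compresses low values, and the shares left in HPC were not close. DPPA4 kept 5.37% of its hESC value there, NANOG 2.38% and PRDM14 0.466%.

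**Figure D4:**
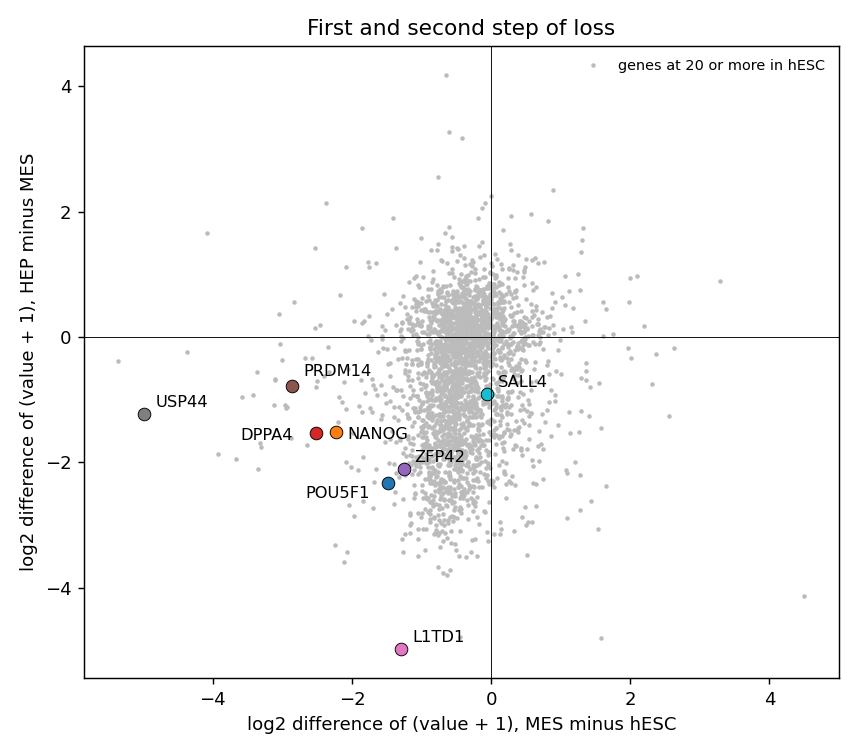
Grey points are the 2637 genes at 20 or more in hESC and coloured points the 8 core genes among them, with the log2 difference of (value + 1) from hESC to MES on the horizontal axis and from MES to HEP on the vertical axis. USP44 (-4.98 and -1.23) lies far to the left, L1TD1 (-1.29 and -4.98) at the bottom, and SALL4 (-0.06 and -0.91) within the main cloud.

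From MES to HEP 5 of the 10 genes were called lower (POU5F1, NANOG, DPPA4, ZFP42 and L1TD1), and 0 higher, against 13.9% and 3.32% of all genes, and 6 of the 10 stood at 5 or more in either library. With the GC trend removed 3 were called, POU5F1, NANOG and L1TD1, against 4.96% of all genes. The GC trend was steepest here: among the successive steps, GC content and the log2 difference had a Spearman rho of 0.71 from MES to HEP over the 6366 genes averaging at least 5, of 0.22 from hESC to MES and of -0.43 from HEP to HPC. That is a description across genes, which are not independent. From HEP to HPC 2 of the 10 were called lower, POU5F1 and ZFP42, and 0 higher, against 3.57% and 3.01% of all genes. Only 4 of the 10 stood at 5 or more in either library at this step, so the others could not be called.

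The fall of the set ran beside that of other pluripotency genes, but several of these behaved otherwise. Of 26 such genes, 24 stood at 1 or more in any library, and in MES 16 were called lower and 2 higher, with a median of -1.34 beside -0.12 for all detected genes. Of all genes, 3.7% were lower and 3.79% higher in MES, and 10.9% of those at 20 or more in hESC were lower. In HEP 20 of the 24 were lower and 0 higher, with a median of -2.53 beside -0.47. Of all genes 17.3% were lower there, and 47.5% of those at 20 or more in hESC. HPC again had 20 lower and 0 higher, with a median of -3.18 beside -0.44, against 15.8% and 42.7% lower. Counted as the core genes were, 16 of the 26 were fast, 5 slow and 5 neither. Next to SOX2 the lowest log2 differences in MES belonged to the telomere-binding protein TERF1 (91.5 to 8.25) and the Polycomb protein PHC1 (95.0 to 10.2). FOXD3, a forkhead repressor with a low value in hESC, went from 5.71 to 0.01. TDGF1, a co-receptor for NODAL, had its largest step between MES and HEP, as L1TD1 did, with 73.2% left in MES and 2.23% in HEP. The genes higher in MES were the neuropeptide GAL (21.9 to 65.3) and the SALL4 paralog SALL1 (3.12 to 11.2). SALL2, another paralog, went from 39.0 to 5.70, unlike SALL4 at the same step. MYCN, a MYC-family growth regulator, stood at 26.5 in hESC and 4.93 in HEP, then at 49.6 in HPC.

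**Figure D5:**
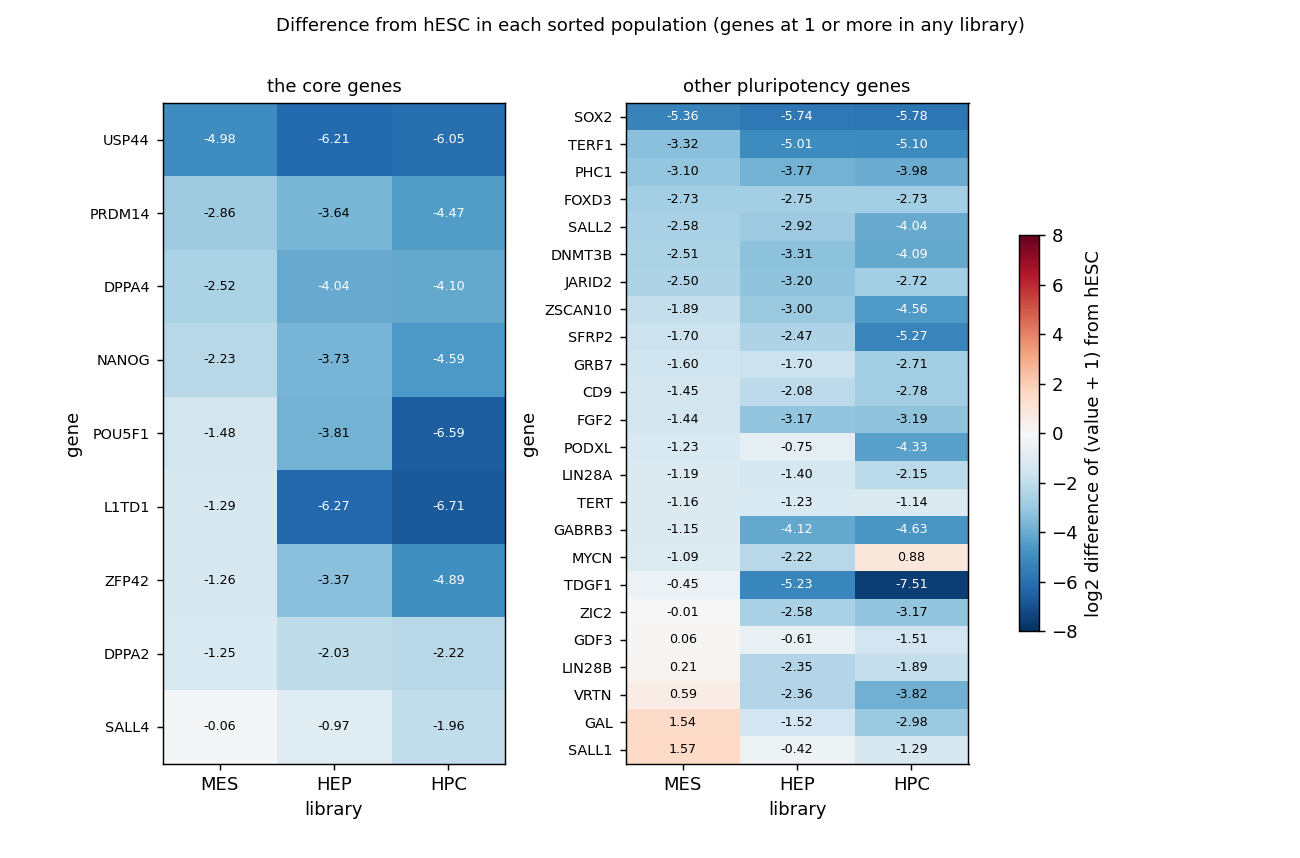
Colour and printed number give the log2 difference of (value + 1) from hESC in MES, HEP and HPC (columns) for the 9 core genes and the 24 other pluripotency genes at 1 or more in any library (rows, ordered by MES). As deposited, all 27 cells of the core genes are negative, from -0.06 for SALL4 to -6.71 for L1TD1, while in the other panel GAL and SALL1 are above 1 in MES.

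The genes of proteins with which the core genes work were counted in 4 short lists. Of all genes 3.7% were called lower in MES and 17.3% in HEP, where 47.5% of those at 20 or more in hESC were. No list was tested against these shares. Of 13 subunits of NuRD, the repressor complex bound by SALL4, 1 was lower in MES (RBBP7, 67.8 to 33.1, next to the 2-fold mark and not called with the GC trend removed) and 0 higher. In HEP 4 were lower, including HDAC2 (12.2 in hESC and 1.5 in HEP), while the ATPase CHD4 stayed between 34.0 and 36.7 in the 4 libraries. Of 6 partners of PRDM14, 1 was lower in MES, JARID2 (62.8 to 10.3), and 3 in HEP, with the Polycomb methyltransferase EZH2 at 13.7, 8.15, 4.41 and 4.18. Of 9 partners and substrates of USP44, 0 were lower and 1 higher in MES (TBL1X, 1.96 to 6.98). The ubiquitin ligase RNF20, which places the H2B mark that USP44 removes, went from 22.6 to 11.4 and 2.84, and the checkpoint activator CDC20 stood at 80.6, 76.1, 77.7 and 30.3. In HEP 6 of those 9 were lower. Of 4 RNA-binding proteins linked to L1TD1, 1 was lower in MES, LIN28A (442 to 194, not called with the GC trend removed), and 2 in HEP. The counts for HEP rested on the scale: with the GC trend removed 1 NuRD subunit, 1 PRDM14 partner, 1 USP44 partner and 0 of the L1TD1 list were lower there. LIN28A kept 37.8% of its hESC value in HEP, where L1TD1 kept 0.765%, and IGF2BP1 stood at 32.3, 34.7, 30.1 and 26.2.

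By profile, the genes most like each core gene were sought among 2629 others at 20 or more in hESC, by the root mean square difference of their log2 differences from hESC over the 3 sorted libraries. For POU5F1 the closest were RARRES2 (0.45), with values of 139, 43.5, 9.38 and 1.46, and then SLC7A3 (0.81) and PDZD4 (0.84). For NANOG they were RASL11B (0.26), AP1M2 (0.29) and GPM6B (0.39). The genes nearest to DPPA4 were SEPHS1 (0.27), ZNF483 (0.32) and CHGA (0.35), and those nearest to PRDM14 were CHGA (0.24), SEPHS1 (0.27) and PHC1 (0.33). CHGA and SEPHS1 were thus near both on the log2 (value + 1) scale, which compresses low values. In HPC CHGA stood at 0.01, from 21.9 in hESC, and DPPA4 at 11.2, from 208. SEPHS1 stood at 10.7 there, from 228 in hESC, and PRDM14 at 0.11, from 23.6. For ZFP42 the closest genes were SLC7A3 (0.33), TRIML2 (0.36) and AP1M2 (0.40), of which TRIML2 lies next to ZFP42 in the RefSeq annotation and stood at 25.1, 8.97, 0.80 and 0.12. For USP44 the closest was SOX2 (0.38), followed at a distance by LECT1 (0.66) and LCK (0.84). For L1TD1 the nearest were farther off, with UGP2 at 0.80, CRABP1 at 0.85 and TDGF1 at 0.90. For SALL4 they were the scaffold protein IQGAP1 (0.15), the activin receptor ACVR2B (0.18) and KHDRBS1 (0.21). DPPA2 and UTF1 are low throughout, which compresses their differences on the log2 (value + 1) scale. Nearest to DPPA2 were SERF1B (0.17), PPIL1 (0.19) and ENOPH1 (0.20), and nearest to UTF1 were PLCB3 (0.03), C7orf50 (0.11) and POR (0.13).

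Markers of other cells that can express POU5F1 or NANOG were looked at beside these values. Of 10 germ cell genes, 7 stood at 1 or more in any library, and in MES 3 of them were higher and 0 lower: NANOS3 (0.29 to 9.82), SOX17 (0.19 to 25.1) and TFAP2C (0.37 to 5.12), of which SOX17 is also an endoderm and endothelial gene. Of all genes, 3.79% were higher and 3.7% lower in MES. In HEP 2 germ cell genes were higher (NANOS3 and SOX17) and 2 lower, against 5.56% and 17.3% of all genes. In HPC 0 were higher and 2 lower, against 4.67% and 15.8%. The genes lower in HEP and HPC were ALPL, a phosphatase also used as a marker of embryonic stem cells, at 30.8, 15.6, 8.73 and 0.90, and PDPN at 15.7, 10.8, 6.49 and 1.45. Of genes at 20 or more in hESC, as ALPL was, 47.5% were lower in HEP and 42.7% in HPC. KIT stood at 3.37, 1.43, 2.14 and 2.57. The summed value of the 10 was 51.8 for hESC, 71.3 for MES, 65.6 for HEP and 11.3 for HPC, and the later germ cell genes DDX4 and DAZL were at 0.2 or less in every library. The part of such cells in the POU5F1 and NANOG values was not tested. Genes of the primitive streak, the structure from which mesoderm arises, were higher in MES in 4 of 7 cases, against 3.79% of all genes. In MES MIXL1 was at 57.2 and EOMES at 56.5, and POU5F1 kept 35.9% of its hESC value.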

How the data were processed

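RNA sequencing of 4 H1-derived populations was used, 1 library each, made with the Illumina TruSeq kit from 2 ug of total RNA, per the labels' protocols. The authors deposited 1 table per library, which holds a normalised signal for each gene. BWA, Bowtie and RSEM with build hg19 are named in the submitters' processing notes; their versions and roles, the annotation, strand and the measure (FPKM or TPM) were not given in the sources used here. Levels of different genes are therefore compared by rank or by share of hESC. Where values of different genes are printed side by side or summed, their relative amounts are not read. Among low values no steps of single reads were seen, so depth and counting error are unknown.

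Each table held 17634 rows; 4 rows under 2 repeated names, symbols turned into dates, were left out. Differences are log2 of (value + 1), as deposited. Named were the 10 genes, the 3 closest profiles of each gene, and part of the list members with the largest differences; which of these, and all other names, were chosen after their values were seen. Members and lists were chosen with earlier results of these data known, and 1 gene of the other pluripotency genes is not reported here. The 10 alternatives were a pseudocount of 0.1 or 5, a minimum of 20 or none, a 4-fold mark, and 5 scalings: median of ratios, upper quartile, common total, common total without mitochondrial, ribosomal protein, histone and globin genes, and removal of the GC trend (median deviation in 50 GC bins, averaged over 5, with GENCODE 29 transcripts, matched for 98.9% of genes). The background of genes at 20 or more in hESC and the shortened motif were chosen after seeing the data. Calls and the GC removal were run on simulated data as a check of the code. That simulation had a straight GC trend in HEP alone, so it does not show how well the trends here were removed. Python 3.11.15 and pandas 2.3.3 were used.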

Additional observations from a re-analysis of the deposited data

How the results depend on the processing

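Of 500 differences of single core genes under the 10 alternatives (10 genes, 5 comparisons), 476 kept their side of the 2-fold mark, 15 no longer passed it and 9 newly passed it; these comparisons share libraries. The sign turned in 8, none of them a called difference: SALL4 from hESC to MES in 4 scalings (-0.06 as deposited, 0.01 to 0.16) and UTF1 from hESC to HEP in 4 (-0.18 as deposited, 0.01 to 0.09). The count of core genes called lower kept within 1.5 times of the reported count except as follows. At 4-fold it was 4 in place of 7 from hESC to MES, 3 in place of 5 from MES to HEP and 1 in place of 2 from HEP to HPC, with 4 fast genes in place of 7 and 3 slow in place of 1. With a minimum of 20 it was 1 from HEP to HPC. With the GC trend removed it was 3 from MES to HEP, and 3 genes were slow. The shortened composite motif was in 1 promoter in place of 0. The share of all genes called lower ranged over the alternatives from 0.686% to 5.54% in MES, 6.73% to 23.8% in HEP and 6.17% to 21.6% in HPC against hESC, from 4.52% to 19.7% from MES to HEP and from 0.981% to 5.04% from HEP to HPC. Among all genes called, the share called lower was 49.4% as deposited and 29.8% to 44.3% over the 5 scalings in MES, 75.7% and 49.6% to 58.2% in HEP, 77.1% and 49.7% to 66.4% in HPC, 80.7% and 49.8% to 69.9% from MES to HEP, and 54.3% and 52.9% to 69.4% from HEP to HPC; over these scalings 5 to 7, 7 to 7, 8 to 8, 3 to 5 and 2 to 3 core genes were called lower and 0 higher. Of the 24 other pluripotency genes, those lower in MES were 7 at 4-fold in place of 16, those lower from MES to HEP 4 with a minimum of 20 and 6 at 4-fold in place of 10, and those lower from HEP to HPC between 1 and 8 in place of 5. With the GC trend removed, genes lower in HEP than in hESC were 1 in place of 4 for NuRD, 1 in place of 3 for PRDM14 partners, 1 in place of 6 for USP44 partners and 0 in place of 2 for the L1TD1 list. Unknown depth limits every value near 1 or less. No paired analysis was possible because each group is 1 library.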

Other observations

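Genes of the naive state, an earlier form of pluripotency than that of conventional human embryonic stem cells, were low in hESC. Of 15 such genes 0 stood at 5 or more there, so none could be called lower in MES, where 3 were called higher against 3.79% of all genes. The T-box factor TBX3 went from 0.12 in hESC to 22.4 in MES, then to 15.8 in HEP and 7.66 in HPC. The nuclear receptor NR0B1 went from 0.23 to 12.6 in MES and 1.10 in HEP. KLF2, which is also an endothelial gene, reached 12.1 in HEP from 0.06 in hESC. DPPA3 and DPPA5, named like DPPA2 and DPPA4 but of other protein families, stood at 2.49 and 2.02 in hESC and at 0.02 and 0 in HEP.

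Genes next to the core genes in RefSeq showed a mixed picture. Beside ZFP42, the cadherin FAT1 stood at 23.7, 16.4, 6.44 and 3.81. METAP2, which neighbours USP44, stood at 37.5, 21.1, 1.53 and 2.87, so it was also lower in HEP but held more of its hESC value in MES than USP44 did. TCF19, a neighbour of POU5F1, stood at 5.28, 7.35, 7.66 and 7.87. VENTX, a homeobox gene beside UTF1, stood at 2.17, 4.81, 2.53 and 0.46.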
